A study of Homo sapiens with 12 samples.

Results

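Silencing of LARP4B was compared between PC3, a human prostate carcinoma line, and MG63, a human osteosarcoma line. The quantity described throughout is the difference between lines: the log2 change from siControl to siLARP4B in PC3 minus the same change in MG63, so that a negative value means a lower response in PC3. Both lines were labelled wild type. Cells received 10 nM siRNA by lipid transfection, either non-targeting (siControl) or directed at LARP4B (siLARP4B), and were harvested for poly(A) RNA at 72 h. The 4 resulting groups hold 2 libraries each, described as biological replicates, within a series of 12. The siControl cells of each line therefore shared the transfection and the siRNA dose with the silenced cells. The siRNA sequences are not given in the sources used here, so an effect of LARP4B loss and an effect of the siRNA on other transcripts cannot be told apart. Genes were taken as members when their mean FPKM, the deposited level scaled to transcript length and library size, was at least 1 in each line. That rule chose 10937 of 28163 gene symbols, of which 10809 passed the count filter and were tested and 128 did not. At the threshold, FAM122C had a mean of 1.00107 FPKM in its lower line and was a member, and TENT5B had 0.999595 FPKM and was not.

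LARP4B belongs to the La-related proteins and is a cytoplasmic RNA-binding protein that associates with messenger RNA and with poly(A)-binding protein. Proliferating cells switch on genes in waves: E2F factors drive the enzymes of DNA replication around the entry into S phase, and complexes that contain B-MYB and FOXM1 drive the mitotic genes later. Interferon signalling is a separate program. Sensors of foreign nucleic acid induce interferons, which act through a receptor and its transcription factors on a set of antiviral genes.

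The libraries held between 16950119 and 19595860 fragments in the 4 groups. Replicates correlated at 0.9924 to 0.994 (Pearson, log2 scale, across genes). In all 4 groups the pair differed more than sampling alone gives. The chi-square per degree of freedom was 6.33 for MG63 siLARP4B and 4.02 for PC3 siControl. It was 2.17 for MG63 siControl and 1.95 for PC3 siLARP4B. Epithelial markers summed to 1120 to 1190 FPKM in PC3 and to 54.7 to 72.4 FPKM in MG63, where EPCAM, GRHL2 and ELF3 were listed at 0 in both siControl libraries. The 10 markers written for MG63 summed to 2770 to 3170 FPKM there, most of it from the collagens COL1A1, COL1A2 and COL3A1 and the matrix protein SPARC, against 77.0 to 81.4 FPKM in PC3. RUNX2, the master regulator of bone formation, stayed under 0.32 FPKM in both lines, and CDH11 and TWIST1 were higher in PC3 than in MG63. A list of 10 leukocyte and endothelial markers summed to 21.2 to 23.5 FPKM in PC3 and, in MG63, to 34.1 to 36.8 FPKM in siControl and 17.9 to 18.0 FPKM in siLARP4B, most of it CD68. In MG63 CD14 reached 2.48 FPKM and the endothelial cadherin CDH5 3.66 FPKM, and in PC3 the receptor KDR reached 8.58 FPKM, while PTPRC did not exceed 0.0684 FPKM and CD3E was listed at 0 throughout.

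LARP4B itself, at chr10:806914-931705 (hg38, minus strand), fell in both lines. In PC3 its level was 7.02 and 7.18 FPKM in siControl and 1.35 and 1.26 FPKM in siLARP4B. In MG63 it was 6.64 and 6.77 FPKM in siControl and 1.89 and 2.20 FPKM in siLARP4B. The siControl levels of both lines were close, and the silenced libraries did not overlap with them in either line. The log2 change was -2.45 (SE 0.077, edgeR adjusted p = 9.7e-12) in PC3 and -1.70 (SE 0.072, adjusted p = 5.6e-10) in MG63, which left 18.4% and 30.5% of the siControl level. The fall was larger in PC3 by 0.75 on the log2 scale (difference -0.75, SE 0.11, adjusted p = 0.00012). The depth of silencing thus differed between lines, and its part in the differences below was not tested. LARP4, the paralogue that encodes LARP4A, read 19.0 and 19.4 FPKM against 18.8 and 19.0 FPKM in PC3, and rose in MG63 from 8.18 and 8.50 FPKM to 10.6 and 11.5 FPKM, with a difference of -0.46 (SE 0.086, adjusted p = 0.0012).

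Of the tested members, 3548 (32.8%) differed between lines at an adjusted p under 0.05: 1435 (13.3%) responded higher in PC3 and 2113 (19.5%) lower. Over all 16066 genes tested the shares were 11.4% and 13.8%. In PC3 alone 2780 members rose (25.7%) and 2845 fell (26.3%), together 52.0% of the members and 43.0% of all genes tested. In MG63 alone 2412 rose (22.3%) and 2043 fell (18.9%), together 41.2% of the members and 32.6% of all genes tested. Changes of at least 2-fold were called up for 127 members (1.17%) and down for 319 (2.95%) in PC3, and up for 61 (0.564%) and down for 82 (0.759%) in MG63. Over all genes tested the same shares were 3.47% and 2.76% in PC3 and 1.16% and 1.69% in MG63. The median called difference was 0.469 in size, beside a median SE of 0.111 for a member. A difference of at least 2-fold was called higher for 166 members (1.54%) and lower for 139 (1.29%), against 2.98% and 1.28% of all genes tested. The split between directions moved with scaling: lower genes made up 59.6% of the called members here, 43.6% when libraries were scaled by their totals alone, 48.8% among genes of at least 5 FPKM and 75.9% with the GC and length offset. Scaling and the offset moved the median difference of all genes from 0.02 to between -0.06 and 0.09.

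The called differences took several forms. Among the 3548, 662 had moved in the same direction in both lines, 504 of them further in PC3 and 158 further in MG63. Another 1568 passed the test in PC3 without passing it in MG63 (734 rose and 834 fell), 821 passed it in MG63 without passing it in PC3 (523 rose and 298 fell), and 97 passed in neither line. The remaining 400 rose in one line and fell in the other: 207 rose in PC3 and fell in MG63 (1.92%), and 193 did the reverse (1.79%). A further 1675 members moved in the same direction in both lines with no called difference. The spread of the log2 change over the members was 0.455 (SD) in PC3 and 0.356 in MG63.

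**Figure D1:**
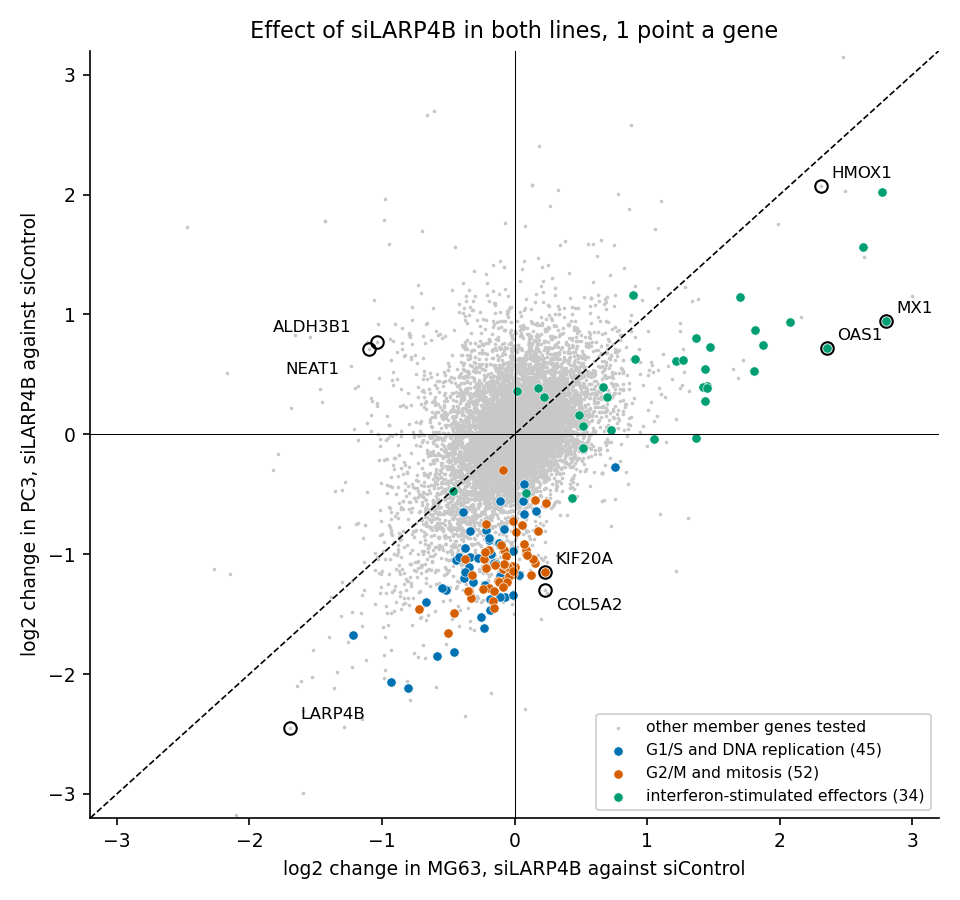
Log2 change from siControl to siLARP4B in MG63 (horizontal) and PC3 (vertical), 1 point for each tested member gene, with 3 gene lists coloured and the dashed line marking equal change; 5 genes lie outside the axes. The division genes sit below the dashed line and the interferon-stimulated genes lie mostly below it on the right, while NEAT1 and ALDH3B1 lie at the upper left.

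Cell division genes gave the most uniform difference. All 45 members of a list for G1/S and DNA replication responded lower in PC3, with a median difference of -0.793, and so did all 52 tested members of a list of 53 genes for G2/M and mitosis, with a median of -1.037. The median over all tested members was -0.037, and 19.5% of them were called lower. In PC3, 44 of the 45 replication genes and 52 of the 52 mitotic genes fell, with median log2 changes of -1.081 and -1.107. In MG63, 27 of the 45 replication genes fell and 1 rose (median -0.216), and 15 of the 52 mitotic genes fell and 3 rose (median -0.082). In such bulk RNA, fewer cells in a phase of the cycle and less RNA per cell cannot be told apart.

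The 6 replication genes with the lowest differences were enzymes of nucleotide supply, factors that start replication and the activator E2F2. TK1, the thymidine kinase of the salvage pathway (chr17:78174079-78187204, minus strand), read 53.2 and 54.6 FPKM in PC3 siControl and 16.7 and 14.1 FPKM after siLARP4B. In MG63 it read 115 and 114 FPKM, and then 82.1 and 82.8 FPKM. It thus fell in both lines, with log2 changes of -1.82 and -0.46 and a difference of -1.36 (SE 0.093, adjusted p = 2.1e-07). RRM2, a subunit of ribonucleotide reductase (chr2:10122568-10131419, plus strand), fell in PC3 from 45.3 and 47.1 FPKM to 18.7 and 17.9 FPKM. Its MG63 libraries overlapped, at 45.1 and 44.2 FPKM in siControl and 42.8 and 44.4 FPKM in siLARP4B, and the difference was -1.33 (SE 0.079, adjusted p = 6.7e-08). Both lines therefore started RRM2 from the same level and ended apart.

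TYMS, thymidylate synthase, fell in PC3 from 58.9 and 60.6 FPKM to 13.0 and 14.7 FPKM and in MG63 from 82.9 and 86.2 FPKM to 47.3 and 48.4 FPKM, a difference of -1.31 (SE 0.094, adjusted p = 3.3e-07); an antisense gene and ENOSF1 overlap it on the other strand, and how strand was handled is not given in the sources used here. CDT1, which loads the replicative helicase, fell in PC3 from 17 and 14.7 FPKM to 6.46 and 5.98 FPKM. In MG63 CDT1 read 20.5 and 20.1 FPKM against 18.9 and 19.3 FPKM, which did not pass the test (log2 change -0.07, adjusted p = 0.54). MCM10, a replication initiation factor, went from 2.91 and 2.81 FPKM to 1.10 and 0.972 FPKM in PC3, and its difference was -1.28 (SE 0.14, adjusted p = 8.6e-06). E2F2, an activator of this program, fell to 0.643 and 0.954 FPKM from 2.27 and 2.56 FPKM in PC3 and differed by -1.39 (SE 0.20, adjusted p = 0.00014). CCNE1, the G1 cyclin E1, was the 1 list member that rose in MG63, from 1.30 and 1.61 FPKM to 2.59 and 2.28 FPKM, and it did not pass in PC3 (log2 change -0.27, adjusted p = 0.35).

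Mitotic regulators showed a fall in PC3 with little change in MG63. KIF20A, a kinesin of the spindle midzone (chr5:138179112-138187720, plus strand, overlapping CDC23 on the other strand), fell in PC3 from 16.8 and 16.3 FPKM to 7.78 and 7.17 FPKM. In MG63 it rose from 74.7 and 76.2 FPKM to 86.0 and 89.1 FPKM, so its groups were apart in both lines in opposite directions (difference -1.38, SE 0.081, adjusted p = 6.7e-08). AURKA, the Aurora A kinase, and CKS2, a CDK-binding subunit, were the other two G2/M genes that rose in MG63, by 0.18 and 0.24 on the log2 scale. BUB1, a spindle checkpoint kinase, read 19.3 and 19.7 FPKM and then 8.93 and 8.50 FPKM in PC3, against 21.4 and 22.3 FPKM and then 22.8 and 24.2 FPKM in MG63, a difference of -1.29 (SE 0.085, adjusted p = 1.7e-07). KIF2C, a microtubule depolymerase of the centromere, differed by -1.23 (SE 0.083, adjusted p = 2.0e-07). CDK1, the mitotic kinase, fell in PC3 from 60.3 and 67.0 FPKM to 25.7 and 27.1 FPKM, and differed by -1.08 (adjusted p = 5.4e-06).

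For some long mitotic transcripts the MG63 siLARP4B libraries disagreed. MKI67, the proliferation antigen Ki-67, fell in PC3 from 19.2 and 21.8 FPKM to 7.29 and 7.79 FPKM, and read 25.6 and 25.6 FPKM against 18.0 and 27.4 FPKM in MG63 (difference -1.30, SE 0.21, adjusted p = 0.0004). CENPF, a kinetochore protein, had 20.3 and 26.8 FPKM in the MG63 siLARP4B libraries, the first below and the second within the siControl range of 26.2 to 27.3 FPKM. ASPM, a spindle pole protein, had 11.1 and 15.4 FPKM there, around the siControl values of 14.1 and 14.4 FPKM. The number of G2/M genes that fell in MG63 followed these libraries: it was 6 without MG63 siLARP4B replicate 1 and 21 without replicate 2, and 9 and 8 without either siControl replicate. The difference between lines was called for 51 or all 52 of the 52 genes whichever library was left out, and for 51 with the GC and length offset.

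Regulators of the cycle were mixed. MYBL2, which encodes B-MYB (chr20:43667114-43716482, plus strand), fell in PC3 from 46.5 and 47.7 FPKM to 18.2 and 18.4 FPKM, and in MG63 read 76.5 and 78.7 FPKM against 75.1 and 77.4 FPKM (difference -1.37, SE 0.063, adjusted p = 3.8e-09). FOXM1 fell in PC3 from 29.4 and 30.2 FPKM to 14.6 and 13.6 FPKM and by 0.15 on the log2 scale in MG63, a difference of -0.94 (adjusted p = 5.5e-07). Among all members 19.5% responded lower in PC3 and 13.3% higher. Of 20 tested members of a list of CDK inhibitors, D-type cyclins and pocket proteins, 8 responded lower in PC3, 2 higher and 10 neither. CDKN1A, the CDK inhibitor p21, was one of the higher ones: it rose in PC3 from 8.56 and 9.02 FPKM to 12.6 and 13.0 FPKM and fell in MG63 from 22.7 and 20.7 FPKM to 18.5 and 15.1 FPKM (difference 0.88, SE 0.13, adjusted p = 0.00019). CDKN1B, the inhibitor p27, rose in both lines, by 0.48 in PC3 and 0.68 in MG63 on the log2 scale, with no called difference (adjusted p = 0.21). CDKN3, a phosphatase of CDKs, fell in PC3 from 41.6 and 42.8 FPKM to 22.2 and 23.4 FPKM and rose in MG63 from 27.4 and 28.2 FPKM to 29.6 and 34.8 FPKM (difference -1.13, SE 0.12, adjusted p = 6.3e-06). CENPW, of the inner kinetochore, and DSCC1, which helps load the replication clamp, also fell in PC3 and rose in MG63, with differences of -1.33 and -1.25.

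Genes of homologous recombination and Fanconi repair, many of which are transcribed with the replication genes, responded lower in PC3 in 17 of 30 tested members. None responded higher, and the median was -0.52. The shares over all members were 19.5% lower and 13.3% higher. EXO1, an end-resection nuclease, fell in PC3 from 9.80 and 9.58 FPKM to 3.09 and 3.27 FPKM and in MG63 from 13.3 and 13.6 FPKM to 9.81 and 11.2 FPKM (difference -1.29, SE 0.11, adjusted p = 1.1e-06). XRCC2, a factor of strand exchange in recombination, fell in PC3 from 7.21 and 7.18 FPKM to 3 and 3.19 FPKM (difference -1.03, SE 0.14, adjusted p = 7.2e-05). The damage kinases ATM and ATR passed the test in neither line.

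The promoters of these genes carry short elements that the tables can be set beside. RefSeq windows of 300 bases (GRCh38.p14, 250 before to 50 after the start site) matched 8530 members by symbol, and 7810 of these lay at the gene of the tables. The windows were searched on both strands for TTTGAA (the cell cycle homology region of mitotic genes), for CCAAT, for any of 4 E2F words (TTTCCCGC, TTTCGCGC, TTTGCCGC and TTTGGCGC) and for GAAA followed by any 2 bases and GAAA (the interferon-stimulated response element). TTTGAA was in 31 of 44 windows of the G2/M list (70.5%) and 1 of 38 of the G1/S list (2.63%), against 9.03% of member windows and 15.4% of all 27305 RefSeq windows. An E2F word was in 21 of the 38 G1/S windows (55.3%) and 3 of the 44 G2/M windows (6.82%), against 5.98% of member windows and 3.33% of all windows. CCAAT was in 33 of the 44 G2/M windows (75%) and 37.6% of member windows. Among member windows, TTTGAA was in 36 of 106 genes called at least 2-fold lower in PC3 (34.0%) and in 6 of 106 called at least 2-fold higher (5.66%). These are matches of letters, described without a test, in lists that were written for function and in sets called from these data. The set called lower holds G2/M genes already counted above, such as MKI67 and ASPM. Over all 139 members called at least 2-fold lower and 166 called higher, the median GC content of the transcript was 43.1% and 57.4%. The GC content of the windows was not measured. The stretches below are shown because they are the upstream matches of the 3 list members with the lowest differences among those that hold one; capitals mark the match nearest the start that was used to choose the stretch, other copies of the word stay in lower case, and each runs 5′ to 3′ on the gene's strand.
MKI67, chr10:128126424-128126487, minus strand, TTTGAA ending 24 bases before the start: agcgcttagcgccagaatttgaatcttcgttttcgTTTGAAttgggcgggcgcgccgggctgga
ASPM, chr1:197146742-197146817, minus strand, match on the other strand, 108 bases before the start: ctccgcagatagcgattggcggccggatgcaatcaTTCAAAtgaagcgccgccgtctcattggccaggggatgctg
KIF18A, chr11:28108157-28108201, minus strand, 5 bases before the start: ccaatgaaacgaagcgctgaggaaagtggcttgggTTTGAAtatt
E2F2, chr1:23531234-23531310, minus strand, E2F word 35 bases before the start: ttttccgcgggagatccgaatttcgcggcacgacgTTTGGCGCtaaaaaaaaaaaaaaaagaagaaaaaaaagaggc
TYMS, chr18:657579-657652, plus strand, match on the other strand, 32 bases before the start: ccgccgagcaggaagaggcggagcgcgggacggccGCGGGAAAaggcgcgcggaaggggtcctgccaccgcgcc
CDT1, chr16:88803719-88803788, plus strand, match on the other strand, 28 bases before the start: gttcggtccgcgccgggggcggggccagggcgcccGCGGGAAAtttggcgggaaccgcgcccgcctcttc
The 3 genes of the G2/M element and the 3 of the E2F words responded lower in PC3 by 1.18 to 1.39 on the log2 scale.

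Interferon-stimulated genes rose in both lines and rose further in MG63. Of 42 effectors written in the list, 34 were tested members. In PC3 23 rose and 3 fell (median 0.398), and in MG63 30 rose and 1 fell (median 1.321). The response was lower in PC3 for 24 of the 34 and higher for 1, LGALS3BP, with a median difference of -0.722. The shares over all members were 19.5% lower and 13.3% higher. Counts in PC3 went from 18 to 25 risers over the alternatives that kept all 34 genes, while those of the difference went from 23 to 26.

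MX1, a GTPase that blocks viral replication, had the largest difference of the list: it read 1.45 and 0.965 FPKM in PC3 siControl and 1.81 and 2.89 FPKM after siLARP4B, against 6.56 and 5.58 FPKM and then 39.3 and 44.4 FPKM in MG63 (difference -1.86, SE 0.31, adjusted p = 0.0005). OAS1, which makes the messenger that activates RNase L (chr12:112906962-112919903, plus strand), rose in PC3 from 10.5 and 11.2 FPKM to 16.2 and 19.8 FPKM and in MG63 from 4.78 and 4.72 FPKM to 23.6 and 24.4 FPKM. Its siControl level was lower in MG63 than in PC3 and its silenced level higher, with a difference of -1.64 (SE 0.15, adjusted p = 2.1e-06). The neighbouring OAS3 (chr12:112938474-112973251, plus strand) rose from 15.4 and 15.8 FPKM to 36.6 and 43.1 FPKM in MG63. In PC3 it read 9.19 and 9.29 FPKM against 8.52 and 9.68 FPKM, which did not pass, and the difference was -1.40 (SE 0.11, adjusted p = 5.5e-07). OAS2 and OASL rose in both lines and differed by -1.14 and -1.28. ISG15, the ubiquitin-like modifier, rose from 89.3 and 84.9 FPKM to 144 and 150 FPKM in PC3 and from 39.8 and 34.9 FPKM to 128 and 142 FPKM in MG63 (difference -1.13, adjusted p = 4.8e-06).

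Not every effector differed. BST2, the tetherin that holds virions at the cell surface, rose from 4.67 and 3.41 FPKM to 8.91 and 9.19 FPKM in PC3 and from 163 and 153 FPKM to 296 and 283 FPKM in MG63. Its difference was 0.26 (95% interval -0.20 to 0.73, adjusted p = 0.42), so a like response in both lines was not shown. TRIM5 fell in both lines, by 0.48 and 0.46 on the log2 scale.

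Sensors and signalling components were split, in counts to be read beside the 19.5% lower and 13.3% higher of all members. Of 24 tested members of a list of double-stranded RNA sensing and interferon signalling, 8 responded lower in PC3 and 5 higher, with a median of -0.097; 1 was higher without MG63 siControl replicate 1 and 2 without MG63 siLARP4B replicate 1. DDX58, the sensor RIG-I, rose from 1.09 and 1.29 FPKM to 2.38 and 2.36 FPKM in PC3 and from 2.09 and 1.99 FPKM to 8.40 and 9.61 FPKM in MG63 (difference -1.18, SE 0.18, adjusted p = 0.00018). STAT2, a transcription factor of the pathway, rose in both lines, by 0.65 and 0.77, with no called difference (adjusted p = 0.47), and IRF9 rose further in MG63 (difference -0.70, SE 0.15, adjusted p = 0.0035). STING1, the adaptor of cytosolic DNA sensing (chr5:139475533-139482758, minus strand), went the other way. It rose in PC3 from 6.39 and 6.87 FPKM to 11.9 and 11.9 FPKM and fell in MG63 from 39.3 and 37.5 FPKM to 27.4 and 23.8 FPKM, a difference of 1.40 (SE 0.11, adjusted p = 4.9e-07).

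The interferon-stimulated response element was in 20 of 26 windows of the interferon-stimulated list (76.9%), against 2.56% of member windows and 3.65% of all RefSeq windows. Stretches of the 3 list members with the lowest differences that hold an upstream match are shown, with the match in capitals.
OAS3, chr12:112938427-112938473, plus strand, 3 bases before the start: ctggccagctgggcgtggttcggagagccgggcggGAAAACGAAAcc
ISG15, chr1:1013355-1013434, plus strand, 98 bases before the start: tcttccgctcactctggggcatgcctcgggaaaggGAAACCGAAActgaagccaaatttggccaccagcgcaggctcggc
PLSCR1, chr3:146544642-146544721, minus strand, 70 bases before the start: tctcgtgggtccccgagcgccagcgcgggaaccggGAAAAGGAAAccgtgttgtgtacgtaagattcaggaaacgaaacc
PLSCR1, a phospholipid scramblase induced by interferon, rose in MG63 from 36.0 and 37.7 FPKM to 73.6 and 77.3 FPKM and read 13.9 and 12.7 FPKM against 13.0 and 13.0 FPKM in PC3.

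Class I antigen presentation could be described only in part. Of 19 genes written, 9 were tested members, of which 2 responded lower in PC3 and none higher, a share near the 19.5% of all members. Among the 10 others, TAPBP, PSMB8 and several more of the major histocompatibility region were listed at or near 0 in these tables, which also hold models on alternate contigs of that region, and NLRC5 and ERAP2 were under 1 FPKM in 1 line. PSME2, a subunit of the interferon-inducible proteasome activator, fell in PC3 from 128 and 120 FPKM to 96.8 and 90.9 FPKM and rose in MG63 from 84.6 and 87.6 FPKM to 109 and 108 FPKM (difference -0.76, SE 0.098, adjusted p = 5.5e-05).

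Cytokine and NF-kB feedback genes leaned the opposite way from the antiviral effectors. Of 31 genes written, 13 were tested members. Of these, 8 responded higher in PC3 and 2 lower, beside 13.3% and 19.5% of all members, with a median difference of 0.504. In PC3 9 rose, beside 25.7% of all members. In MG63 3 rose and 2 fell, near the 22.3% and 18.9% of all members. NFKBIA, the inhibitor of NF-kB and a target of it, rose in PC3 from 29.8 and 28.5 FPKM to 40.5 and 38.6 FPKM and fell in MG63 from 36.3 and 40.0 FPKM to 25.5 and 26.2 FPKM (difference 0.97, SE 0.10, adjusted p = 8.8e-06). IL32 rose in PC3 from 3.63 and 3.15 FPKM to 6.89 and 7.89 FPKM, and its MG63 values of 6.43 and 6.51 FPKM and then 5.19 and 5.99 FPKM did not pass (difference 1.31, SE 0.21, adjusted p = 0.0003). ICAM1, an adhesion receptor for leukocytes, rose in PC3 from 5.07 and 4.42 FPKM to 10.2 and 11.1 FPKM, a difference of 0.86 (adjusted p = 0.0017). CXCL1, a neutrophil chemokine, rose in MG63 from 10.4 and 9.10 FPKM to 16.2 and 22.3 FPKM, and in PC3 read 31.1 and 29 FPKM against 28.6 and 27.9 FPKM (difference -1.09, SE 0.17, adjusted p = 0.00021). Few genes carried these counts: at 5 FPKM or more in both lines 6 were tested, of which 3 were higher and 2 lower. The count of higher members also fell without PC3 siLARP4B replicate 1 or either MG63 siControl replicate.

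**Figure D2:**
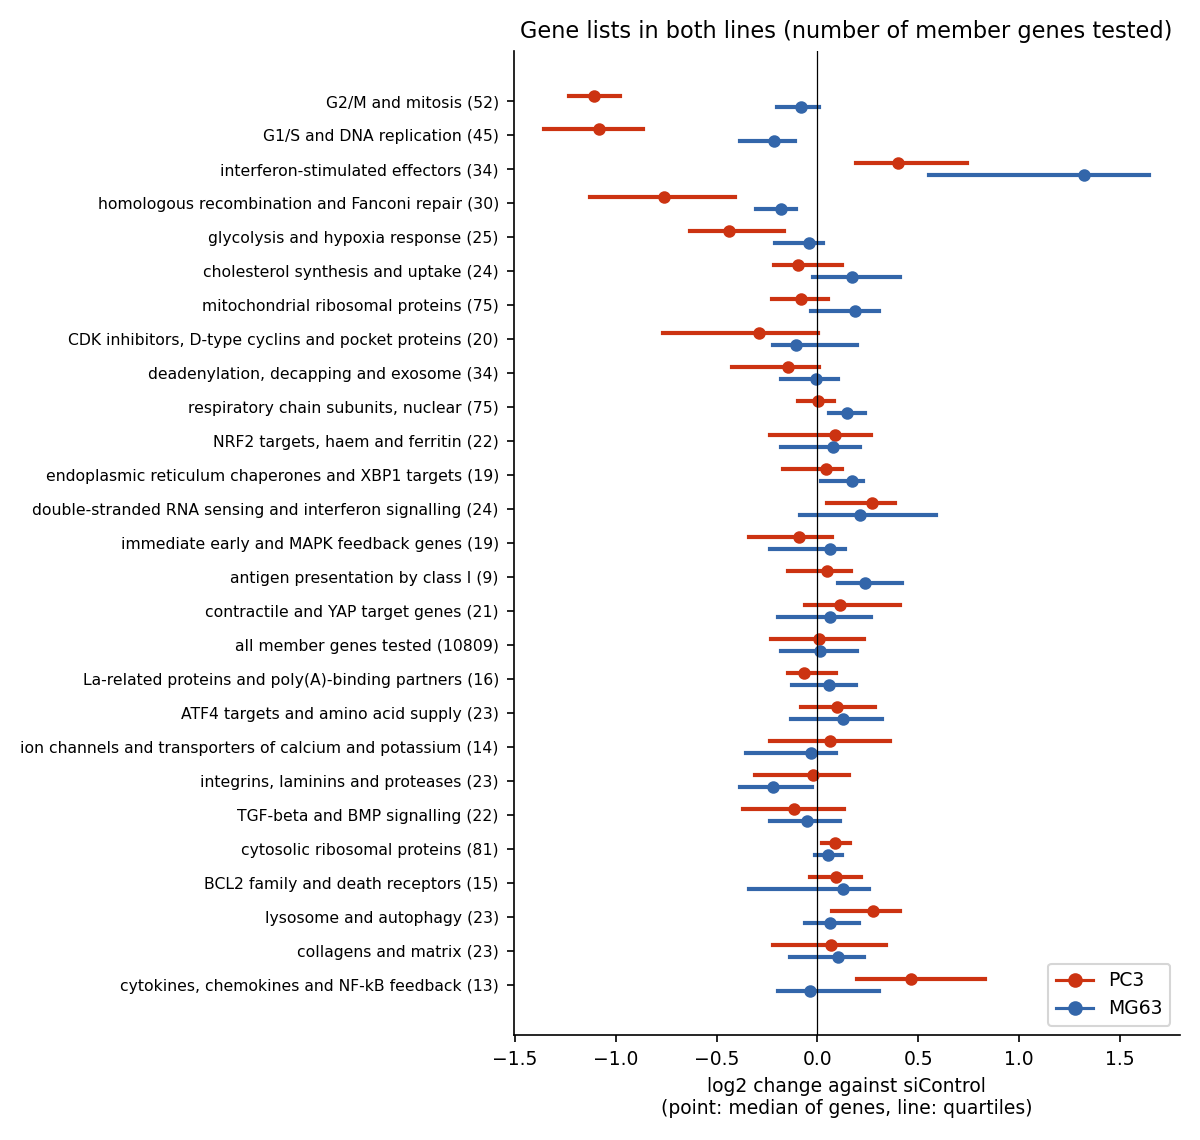
Median (point) and quartiles (line) of the log2 change from siControl to siLARP4B over the tested members of each list, in PC3 and MG63, ordered by the median difference. The G2/M and G1/S medians lie at -1.107 and -1.081 in PC3 and at -0.082 and -0.216 in MG63, the interferon-stimulated list lies at 0.398 in PC3 and 1.321 in MG63, and both medians of all member genes lie at 0.01.

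Several metabolic lists held a larger share of genes lower in PC3 than the 19.5% of all members. Of 25 glycolysis and hypoxia genes 15 were lower and none higher, with a median of -0.321. PGK1, a glycolytic kinase, fell in PC3 from 415 and 394 FPKM to 200 and 183 FPKM and in MG63 from 49.4 and 49.2 FPKM to 46.0 and 40.1 FPKM (difference -0.91, SE 0.087, adjusted p = 3.2e-06). LDHA, which makes lactate, fell in PC3 from 1090 and 1060 FPKM to 642 and 625 FPKM, and in MG63 read 427 and 435 FPKM against 440 and 408 FPKM (difference -0.77, SE 0.058, adjusted p = 4.1e-07). BNIP3, a hypoxia-induced mitophagy receptor, and SLC2A1, the glucose transporter GLUT1, differed by -1.04 and -0.69. The MG63 siLARP4B libraries disagreed on part of this list: CA9, a hypoxia marker, read 7.67 and 1.44 FPKM and NDRG1 822 and 328 FPKM. Without MG63 siLARP4B replicate 2 20 members were lower in PC3, and 11 were with the deduplicated table of PC3 siControl replicate 2 or without PC3 siLARP4B replicate 2. The number that fell in MG63, 5 here, was 11 without MG63 siLARP4B replicate 1, 1 without replicate 2, and 2 and 1 without either MG63 siControl replicate.

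Cholesterol synthesis genes were lower in PC3 in 13 of 24 and higher in none (median -0.294), with 9 falling in PC3 and 11 rising in MG63. STARD4, a sterol carrier, fell in both lines and further in PC3 (difference -1.06, SE 0.19, adjusted p = 0.00094). Mitochondrial ribosomal proteins were lower in PC3 in 33 of 75 and higher in 1, with a median of -0.233: 35 rose and 2 fell in MG63, while 5 rose and 23 fell in PC3. The 23 falls were 14 without PC3 siControl replicate 1 and 15 without PC3 siLARP4B replicate 2, and the 35 rises 23 without either MG63 siControl replicate. MRPS5 rose in MG63 from 14.0 and 13.9 FPKM to 18.7 and 18.8 FPKM and read 23.1 and 21.6 FPKM against 20.5 and 20 FPKM in PC3 (difference -0.60, SE 0.095, adjusted p = 0.0003). Nuclear-encoded subunits of the respiratory chain were lower in 19 of 75 and higher in none, a share of 25.3% that lies near the 19.5% of all members. The count was 38 with the GC and length offset, 11 without PC3 siControl replicate 1 and 10 with scaling by library totals. Of 81 cytosolic ribosomal proteins 6 were called higher and 2 lower, with a median of 0.029 whose sign turned under 8 of 20 alternatives. None were higher without MG63 siControl replicate 2 or MG63 siLARP4B replicate 2, 1 without MG63 siControl replicate 1, 3 without PC3 siControl replicate 2 or either PC3 siLARP4B replicate, and 23 with scaling by library totals. With the GC and length offset 2 were higher and 17 lower, and with no filter on low counts 3 and 9. Over all members the offset gave 1054 higher and 3312 lower, no filter 1184 and 2829, and library totals 1969 and 1520.

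Matrix and adhesion genes went both ways, in counts to be read beside the 13.3% higher and 19.5% lower of all members. Of 23 collagen and matrix genes 7 were higher in PC3 and 5 lower, and the sign of the median turned under 2 alternatives, of which the GC and length offset gave 4 higher and 9 lower. COL5A2, a fibrillar collagen chain (chr2:189031898-189179761, minus strand), fell in PC3 from 34.2 and 33.9 FPKM to 13.8 and 14.1 FPKM and rose in MG63 from 88.6 and 90 FPKM to 107 and 100 FPKM (difference -1.53, SE 0.067, adjusted p = 3.0e-09). COL4A1, a basement membrane chain, fell in both lines, from 3.80 and 4.17 FPKM to 0.694 and 0.857 FPKM in PC3 and from 11.1 and 11 FPKM to 4.71 and 5.11 FPKM in MG63 (difference -1.22, SE 0.13, adjusted p = 8.3e-06). TNC, tenascin C, fell in PC3 by 0.46 and rose in MG63 by 0.45 on the log2 scale. SPARC rose in both lines and further in PC3, from 5.34 and 4.15 FPKM to 10.0 and 9.97 FPKM there. Of 23 integrins, laminins and proteases, 8 were higher and 4 lower; 5 were higher without PC3 siLARP4B replicate 1 or either MG63 siControl replicate. With the GC and length offset 4 were higher and 7 lower, and the sign of the median turned under 9 of 20 alternatives, so this list had no fixed direction. The offset counts of both lists are to be read beside 1054 higher and 3312 lower of all members with the offset. ITGA2, the collagen-binding integrin subunit, fell in PC3 from 17.6 and 18.5 FPKM to 4.96 and 5.30 FPKM and in MG63 from 2.42 and 2.47 FPKM to 1.31 and 1.55 FPKM (difference -1.07, SE 0.13, adjusted p = 3.7e-05). LAMB2, a laminin chain, rose in PC3 and fell in MG63 (difference 0.84, SE 0.090, adjusted p = 9.7e-06). WWTR1, the transcriptional partner TAZ of the Hippo pathway, fell in PC3 from 45.3 and 47.4 FPKM to 25.3 and 25.4 FPKM and in MG63 read 72.7 and 75.8 FPKM against 72.6 and 74.3 FPKM (difference -0.88, SE 0.071, adjusted p = 6.5e-07).

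Lysosomal and autophagy genes responded higher in PC3 in 9 of 23 and lower in 1, beside 13.3% and 19.5% of all members, with a median of 0.14. With the GC and length offset 7 were higher and 4 lower and the median was 0.02. All members then gave 1054 higher and 3312 lower, with a median of -0.12. CTSD, a lysosomal protease, rose in PC3 from 132 and 125 FPKM to 193 and 190 FPKM and read 129 and 126 FPKM against 138 and 129 FPKM in MG63 (difference 0.48, SE 0.064, adjusted p = 6.9e-05). SQSTM1, the autophagy receptor p62, rose in PC3 from 146 and 140 FPKM to 161 and 168 FPKM and fell in MG63 from 200 and 205 FPKM to 148 and 149 FPKM (difference 0.61, SE 0.062, adjusted p = 6.3e-06).

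Stress and survival lists gave smaller counts, to be read beside the 13.3% higher and 19.5% lower of all members. Of 23 ATF4 targets 4 were higher and 7 lower, and 2 and 12 with the GC and length offset. Over all members that offset gave 1054 higher and 3312 lower, against 1435 and 2113 without it. SLC7A11, the cystine transporter, fell in PC3 from 9.25 and 9.94 FPKM to 5.42 and 5.60 FPKM, with a difference of -1.04 (SE 0.12, adjusted p = 2.2e-05), and NUPR1, a stress-induced chromatin protein, differed by 0.97. Endoplasmic reticulum chaperones were higher in 2 and lower in 6 of 19, NRF2 targets in 5 and 8 of 22, immediate early genes in 1 and 6 of 19, TGF-beta and BMP genes in 3 and 6 of 22, contractile and YAP target genes in 6 and 7 of 21, and BCL2 family genes in 5 and 1 of 15. Some of these small counts rested on single libraries. The 5 BCL2 family genes were 1 without MG63 siControl replicate 2 or MG63 siLARP4B replicate 1, and 3 without PC3 siControl replicate 1, PC3 siLARP4B replicate 1 or MG63 siLARP4B replicate 2. The 6 immediate early genes were 3 without PC3 siControl replicate 1 or PC3 siLARP4B replicate 2, and the 5 NRF2 targets 3 without either MG63 siControl replicate or MG63 siLARP4B replicate 2. ABCC3, an export pump controlled by NRF2, rose in PC3 from 14.6 and 15.1 FPKM to 26.6 and 27.2 FPKM and fell in MG63 from 1.65 and 1.43 FPKM to 0.986 and 0.754 FPKM (difference 1.64, SE 0.15, adjusted p = 2.4e-06). Ion channels were higher in 6 and lower in 4 of 14. The sign of the median turned under 12 of 20 alternatives for the TGF-beta and BMP genes and under 14 for the ion channels. KCNN4, a calcium-activated potassium channel of that list that was also singled out after its values were seen, rose in PC3 from 33.0 and 31.3 FPKM to 55.6 and 58.1 FPKM and fell in MG63 from 5.54 and 5.84 FPKM to 1.90 and 1.95 FPKM (difference 2.36, SE 0.14, adjusted p = 8.3e-08). PHACTR3, which binds actin and protein phosphatase and was named in the same way, fell in PC3 from 8.80 and 10.1 FPKM to 5.96 and 5.74 FPKM and rose in MG63 from 2.50 and 3.16 FPKM to 6.93 and 6.97 FPKM (difference -2.01, SE 0.16, adjusted p = 5.5e-07).

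Genes of RNA binding and decay, the processes in which LARP4B takes part, were called lower more often than higher, as were all members. Of 16 La-related proteins and poly(A)-binding partners 1 was higher and 6 lower, and the lower ones include LARP4B, the siRNA target. Their median was -0.036, and at 5 FPKM or more in both lines 3 of 14 were higher and 3 lower. With scaling by library totals alone 3 were higher and 3 lower, and the lower count also fell without PC3 siLARP4B replicate 2. Of 34 genes of deadenylation, decapping and the exosome 1 was higher and 11 lower (median -0.196). Among all members 13.3% were higher and 19.5% lower. Library totals gave 1969 higher and 1520 lower over all members, and the 5 FPKM minimum 1378 and 1314. PABPC1, the cytoplasmic poly(A)-binding protein, rose in both lines, from 719 and 704 FPKM to 891 and 889 FPKM in PC3 and from 597 and 608 FPKM to 676 and 679 FPKM in MG63, with no called difference (adjusted p = 0.11). EXOSC3, an exosome subunit, fell from 18.1 and 16.9 FPKM to 3.48 and 3.64 FPKM in PC3 and from 11.8 and 12.5 FPKM to 3.83 and 4.12 FPKM in MG63, which is a fall close in size to that of LARP4B itself (difference -0.71, SE 0.15, adjusted p = 0.0027). PAN2, a deadenylase, fell in MG63 by 0.62 on the log2 scale and read 7.43 and 7.12 FPKM against 7.48 and 7.31 FPKM in PC3.

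Among members of at least 5 FPKM in each line with a single locus, the 10 lowest differences ran from -1.64 (OAS1) to -1.33 (RRM2) and the 10 highest from 1.39 (KRT15) to 2.22 (BCYRN1). The lowest held 2 interferon effectors, 5 genes of replication or mitosis (KIF20A, MYBL2, TK1, CENPW and RRM2), COL5A2, and a pair that fell steeply in both lines. That pair was POGLUT3, an enzyme that adds glucose to proteins, and ISOC1. POGLUT3 went from 11.7 and 12.2 FPKM to 1.36 and 1.68 FPKM in PC3 and from 46.3 and 46.6 FPKM to 14.7 and 15.6 FPKM in MG63 (difference -1.39, SE 0.13, adjusted p = 3.6e-06). ISOC1 went from 27.8 and 25.7 FPKM to 5.65 and 5.96 FPKM in PC3 and from 12.8 and 13.0 FPKM to 7.05 and 7.71 FPKM in MG63 (difference -1.42, SE 0.12, adjusted p = 7.6e-07).

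The highest differences came mostly from genes that rose in PC3 and fell in MG63. NEAT1, the long non-coding RNA that builds paraspeckles (chr11:65422798-65445538, plus strand), rose in PC3 from 10.7 and 10.1 FPKM to 16.4 and 18.0 FPKM and fell in MG63 from 33.2 and 25.6 FPKM to 13.9 and 13.2 FPKM (difference 1.82, SE 0.18, adjusted p = 5.0e-06). The order of the lines thus turned, with MG63 above PC3 in siControl and below it after siLARP4B. ALDH3B1, an aldehyde dehydrogenase (chr11:68010327-68029276, plus strand), did the same, from 5.27 and 4.80 FPKM to 9.10 and 8.12 FPKM in PC3 and from 12.7 and 11.8 FPKM to 6.10 and 5.64 FPKM in MG63 (difference 1.81, SE 0.12, adjusted p = 1.9e-07). LPXN, a focal adhesion protein, went from 7.47 and 7.72 FPKM to 10.8 and 10.3 FPKM in PC3 and from 12.7 and 13.5 FPKM to 6.04 and 6.74 FPKM in MG63 (difference 1.49, SE 0.14, adjusted p = 2.1e-06). IGFBP6, which binds insulin-like growth factor II, rose from 149 and 148 FPKM to 267 and 247 FPKM in PC3 and fell from 45.3 and 44.1 FPKM to 28.6 and 28.4 FPKM in MG63. CITED4, a transcriptional co-regulator, also moved in opposite directions (difference 1.40, SE 0.15, adjusted p = 7.5e-06).

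BCYRN1, a short non-coding RNA also known as BC200 (chr2:47335315-47335514, plus strand), overlaps EPCAM-DT on the other strand. It rose in PC3 from 36.5 and 60.9 FPKM to 327 and 191 FPKM and read 1900 and 1530 FPKM against 2000 and 1850 FPKM in MG63. Its replicates were the least close of the 20 genes, and the difference was 2.22 (SE 0.40, adjusted p = 0.00086). IDUA, a lysosomal enzyme that overlaps SLC26A1 on the other strand, rose in PC3 from 4.54 and 4.52 FPKM to 12.3 and 11.1 FPKM (difference 1.67, SE 0.17, adjusted p = 5.2e-06). KRT15, a basal keratin, fell in MG63 from 10.8 and 9.67 FPKM to 5.37 and 4.15 FPKM, and its PC3 values of 6.76 and 6.50 FPKM and then 8.23 and 8.20 FPKM did not pass the test (adjusted p = 0.052). All 20 of these differences kept their direction and stayed past the threshold under each of the 20 alternatives.

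**Figure D3:**
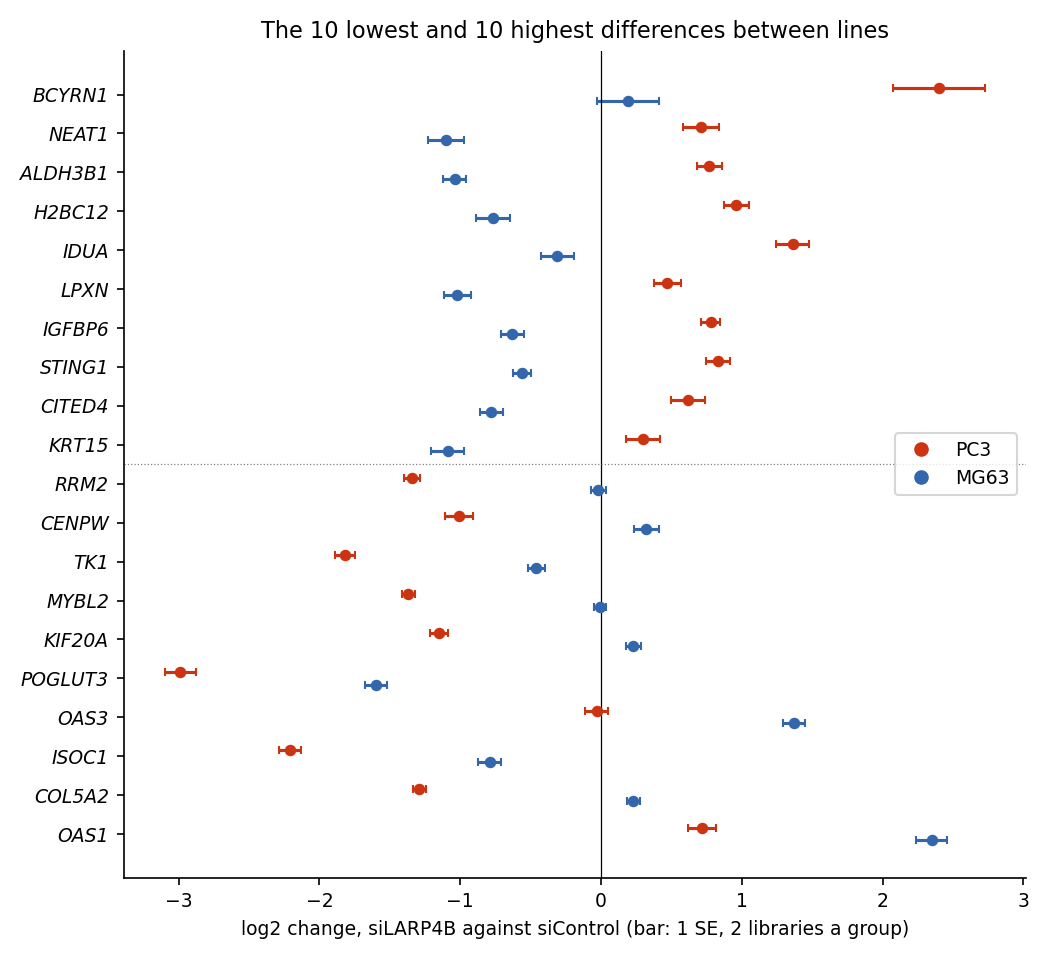
Log2 change from siControl to siLARP4B with its SE (bar, 2 libraries a group) in PC3 and MG63 for the 10 highest (above the dotted line) and 10 lowest differences. NEAT1, ALDH3B1, H2BC12, LPXN, IGFBP6, STING1 and CITED4 lie on opposite sides of 0 in the lines, while POGLUT3 and ISOC1 lie below 0 in both.

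Some large responses in the same direction had no called difference. HMOX1, the haem-degrading enzyme, rose from 11.8 and 11.9 FPKM to 49.4 and 50.9 FPKM in PC3 and from 5.97 and 4.95 FPKM to 27.0 and 26.4 FPKM in MG63, by 2.07 and 2.31 on the log2 scale (difference -0.24, SE 0.11, adjusted p = 0.14). It was called lower in PC3 with the GC and length offset (-0.44) and without MG63 siControl replicate 1 (-0.43). MKNK2, a kinase that phosphorylates the cap-binding protein eIF4E, fell from 50.7 and 47.5 FPKM to 19.8 and 18.7 FPKM in PC3 and from 13.2 and 13.8 FPKM to 5.43 and 4.76 FPKM in MG63. Its difference was 0.02 (SE 0.098, adjusted p = 0.92), but it was called lower in PC3, at -0.24, with the GC and length offset. SRPRA, a subunit of the signal recognition particle receptor, fell by 1.52 and 1.31 on the log2 scale. Its difference of -0.21 (adjusted p = 0.066) was called under 10 of 20 alternatives, including without MG63 siControl replicate 2 (-0.27) and without MG63 siLARP4B replicate 1 (-0.34). STARD3NL fell by 1.23 in each line, and HDHD2 by 1.30 and 1.14. MAPK8IP1, a scaffold of JNK signalling, and RTN2, a reticulon, rose by 1.23 and 1.12 in PC3 and by 1.29 and 1.34 in MG63, and with the GC and length offset both were called lower in PC3, at -0.33 and -0.48. A difference this close to 0 with such an SE does not show that the lines responded alike.

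**Figure D4:**
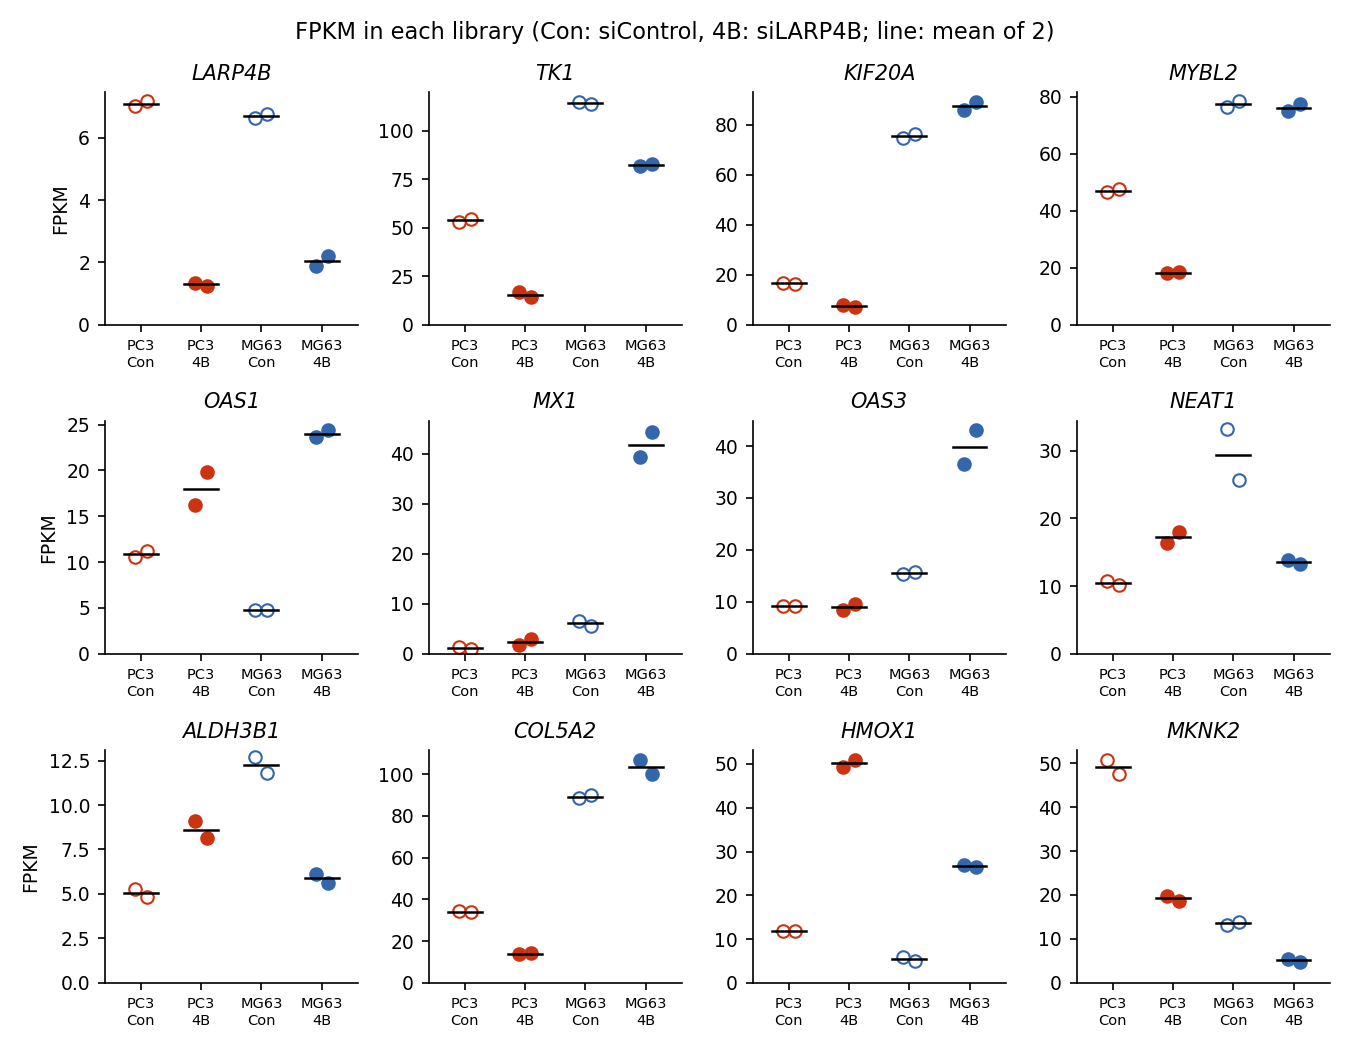
FPKM of 12 genes in each of the 8 libraries, with open points for siControl, filled points for siLARP4B and a line at the mean of 2 libraries. LARP4B, HMOX1 and MKNK2 move the same way in both lines, TK1, KIF20A and MYBL2 fall in PC3 by more than 1 on the log2 scale, OAS1, MX1 and OAS3 rise furthest in MG63, and NEAT1, ALDH3B1 and COL5A2 move in opposite directions.

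The response in PC3 also followed the base composition of the transcripts. Across 5 equal groups of the members by GC content, the median change in PC3 went from -0.10 in the lowest (25% to 41% GC) to 0.13 in the highest (58.6% to 85.5% GC), while in MG63 it stayed between 0.01 and 0.03. The median difference went from -0.14 to 0.10, and the share called higher in PC3 from 5.20% to 24.1%. Genes called at least 2-fold higher had a median GC content of 57.4% and a median transcript length of 2330 bases. Those called at least 2-fold lower had 43.1% and 3161 bases, and all members 48.6% and 3193 bases. Median siControl levels of the higher set were 2.17 FPKM in PC3 and 3.74 FPKM in MG63. Those of the lower set were 10.1 and 12.9 FPKM, and those of all members 11.1 and 9.65 FPKM. The part of GC content in the called differences was not tested gene by gene. With the GC and length offset all 45 G1/S genes and 25 of 34 interferon effectors were lower in PC3, and 6 of 13 cytokine and NF-kB genes were higher. The offset moved other lists toward lower calls in PC3, as given beside the collagen, integrin, ATF4, lysosome and ribosomal protein counts. It moved all members the same way, to 1054 higher and 3312 lower from 1435 and 2113, and the list counts are to be read beside that shift.

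**Figure D5:**
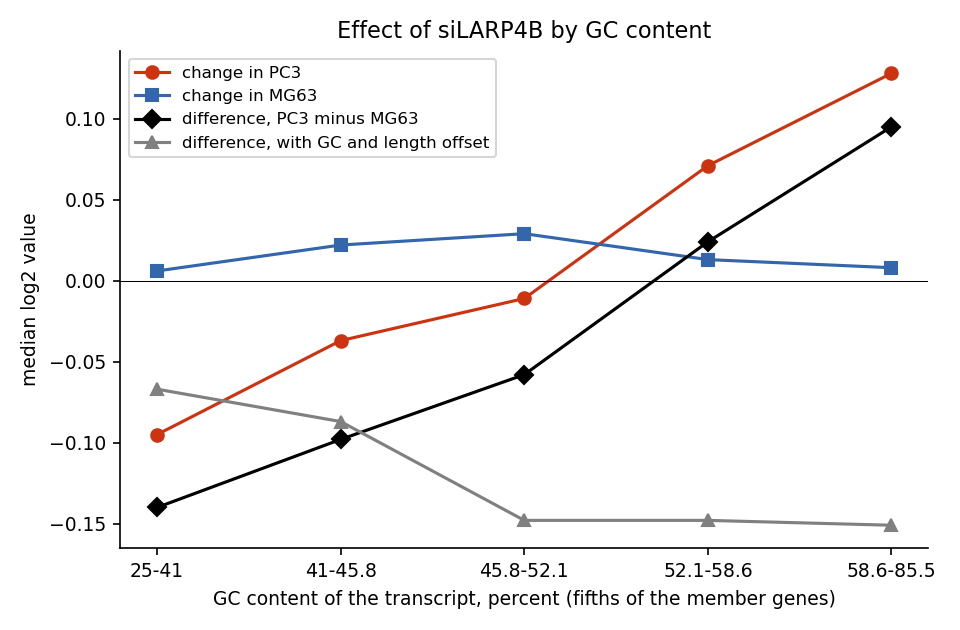
Median log2 change in PC3 and in MG63, median difference, and median difference after an offset for GC content and length, over 5 equal groups of the member genes by transcript GC content. The PC3 line climbs from -0.10 to 0.13 and the MG63 line stays between 0.01 and 0.03; with the offset the difference no longer climbs and lies between -0.07 and -0.15.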

How the data were processed

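RNA of 12 libraries was measured by poly(A) RNA sequencing, and the 8 siControl and siLARP4B libraries are described here. The submitters' processing notes name hg38, FastQC, HISAT2, featureCounts and edgeR, without versions or roles. The authors deposited 1 table per library with 86394 transcript models, each with a fragment count, an FPM signal (fragments scaled to library size) and an FPKM value, per the file headers. Per the deposited values, the FPM signal is the count over 1 total per library; models of a gene share fragments. A deduplicated table of PC3 siControl replicate 2 was used only as an alternative. For each symbol on chromosomes 1 to 22 and X (77879 models) 1 model was kept, that with the highest summed fragment count. Of the 28163 symbols, 27060 were found in RefSeq (GRCh38.p14), 98.585% of these at an overlapping position, and 1748 symbols lie at more than 1 locus.

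Tests on counts used edgeR 4.0.16 under R 4.3.3 (quasi-likelihood F-test, TMM scaling, default expression filter, two-sided, Benjamini-Hochberg adjustment over 16066 genes, threshold 0.05) in a single model of the 12 libraries, with 1 coefficient for each group. The contrast was the change in PC3 minus that in MG63. Common dispersion was 0.003 (5.47% as a coefficient of variation); groups of 2 borrow most of each gene's spread from other genes. The fit was tested on simulated data. Limma 3.58.1 on log2(FPKM + 1) and DESeq2 1.42.0 were alternatives. GC content and lengths came from GENCODE release 29 and the tables, and covered 94.2% of tested genes. Fragments of overlapping and antisense genes may be shared.

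Named genes were LARP4B and LARP4, the 10 highest and 10 lowest called differences among members of at least 5 FPKM in each line with a single locus and no symbol prefix of micro, nucleolar or other small RNAs (a rule that does not cover BCYRN1), the 5 highest and 5 lowest with opposite changes, the 4 largest called differences of a list (6 for division and interferon lists), and 4 shared rises and falls; others served to show list members. Promoter windows on chromosome 8 were left out of the printed stretches. Some list members are not reported here by name. The members and lists were chosen with earlier results of these data known.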

Additional observations from a re-analysis of the deposited data

Results flagged for a closer look

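Each of these results concerns an effect of siLARP4B that differed between PC3 and MG63 by the test of the difference itself. The counts of member genes with a difference were 1435 higher in PC3 and 2113 lower. Of the genes of at least 5 FPKM that passed the test in both lines with opposite signs, the 5 highest and 5 lowest differences are given. Their log2 differences (PC3 minus MG63) were -1.53 for COL5A2, -1.38 for KIF20A, -1.33 for CENPW, -1.25 for DSCC1, -1.13 for CDKN3, 1.82 for NEAT1, 1.81 for ALDH3B1, 1.73 for H2BC12, 1.49 for LPXN and 1.41 for IGFBP6. In all 10 the siControl and siLARP4B libraries did not overlap in either line. Genes chosen by passing both tests with 2 libraries a group would mostly show this, so it adds no support. The MG63 rises of CENPW, DSCC1 and CDKN3 were nearest to the threshold, at 0.32, 0.23 and 0.23 on the log2 scale (edgeR adjusted p = 0.012, 0.047 and 0.039).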

How the results depend on the processing

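The counts of members called higher and lower in PC3 (1435 and 2113) moved with scaling, filters and single libraries. Library totals alone gave 1969 higher and 1520 lower, which turned the balance. Among genes of at least 5 FPKM in both lines, where fewer genes were tested, 1314 were lower, 1865 fell in PC3, and 46 and 54 were at least 2-fold higher and lower. With the GC and length offset 3312 were lower, 107 were at least 2-fold higher and 649 were genes changed in opposite directions. Limma on log2(FPKM + 1) gave 88 and 58 at least 2-fold higher and lower, and DESeq2 gave 910 higher; the cause was not tested. Leaving out 1 replicate at a time gave 832 to 1182 higher (fewest without MG63 siControl replicate 1, and 869 and 908 without MG63 siControl replicate 2 and MG63 siLARP4B replicate 2), 1603 to 2468 lower, 262 to 425 opposite, 130 to 184 at least 2-fold higher and 138 to 185 at least 2-fold lower. With the replicate number as a replicate block, 1321 were higher, 1987 lower and 370 opposite. Deviations of same-numbered libraries correlated at -0.008 to 0.026. No shared deviation by replicate number was seen, which cannot show whether same-numbered libraries were prepared together. Of the results for single genes over the alternatives, 2624 kept their direction and side of the threshold, 80 lost the call, 14 gained it and 27 changed sign. Those 27 were differences near 0, uncalled but for 1: the MAPK8IP1 difference at 0.02; the MKNK2 difference at 0.0, -0.02, -0.04 and -0.06 and, leaving out 1 replicate, from -0.12 to 0.08; and the STARD3NL difference at -0.02, -0.04, -0.06 and, leaving out 1 replicate, from -0.15 to 0.14. The exception was MKNK2 with the GC offset, called at -0.24. Depth limits genes near 1 FPKM most, as members just over the level rule have few fragments.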

Other observations

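Some histone genes, a set chosen after its values were seen, moved apart between the lines. Of 14 tested members, 4 responded higher in PC3 and 1 lower, beside 13.3% and 19.5% of all members. The median difference was 0.637. In PC3 4 rose and 3 fell, near the 25.7% and 26.3% of all members, with a median log2 change of -0.062. In MG63 7 fell and none rose, beside 18.9% and 22.3% of all members, with a median of -0.743. H2BC12, a core histone gene (chr6:27138293-27146858, minus strand, overlapping H4C9), rose in PC3 from 45.9 and 46.6 FPKM to 90.2 and 90.4 FPKM and fell in MG63 from 21.1 and 21.4 FPKM to 14.6 and 9.92 FPKM. H2AC6 rose in PC3 from 23.9 and 21.9 FPKM to 44.5 and 42.7 FPKM and fell in MG63 from 4.47 and 4.44 FPKM to 2.75 and 1.53 FPKM (difference 1.95, SE 0.33, edgeR adjusted p = 0.00052). H2BC21 and H2BC5 differed by 1.49 and 1.21. The linker histone H1-10 fell in both lines, from 59.2 and 56.8 FPKM to 26.1 and 26.2 FPKM in PC3 and from 69.6 and 66.3 FPKM to 40.0 and 35.1 FPKM in MG63. Most histone messages lack a poly(A) tail, and these libraries were poly(A) selected, so the values cover the polyadenylated share of each message.

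CD68, a lysosomal glycoprotein of macrophages that tumour lines also express, fell in MG63 from 30.6 and 27.7 FPKM to 14.2 and 14.4 FPKM and in PC3 from 15.3 and 16 FPKM to 11.8 and 12 FPKM (difference 0.60, SE 0.10, adjusted p = 0.00066).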
